A study of Mus musculus with 6 samples.

Results

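Cytochrome c oxidase, complex IV of the mitochondrial respiratory chain, passes electrons from cytochrome c to oxygen and pumps protons across the inner membrane. Its core subunits are encoded in mitochondrial DNA, while the surrounding subunits and the assembly factors, which insert heme and copper and put the pieces together, are encoded in the nucleus. Several nuclear subunits exist as a widely expressed form and a form of heart and skeletal muscle, and brown fat, the heat-producing fat rich in mitochondria, is known to use heart-type forms as well. The genes described here are the protein-coding genes of the GENCODE M21 annotation whose symbol begins with Cox or Coa followed by a digit, together with Sco1, Sco2, Surf1, Cmc1 and Cmc2. They number 37, and 33 of them had at least 1 read, among 8129 genes with reads in all.

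Messenger RNA was measured in interscapular brown fat of male C57BL/6N mice at 20 weeks of age by nanopore sequencing of capped, full-length cDNA. The cold group was 3 mice, numbered 4, 11 and 15, kept singly at 4 °C over 24 h. The control group was 3 mice, numbered 2, 9 and 14, for which the labels state the general husbandry at 22 to 24 °C and do not state whether they were also kept singly. Both groups carry the same wild-type strain, and each library came from 1 mouse. Cold libraries held 2922939 to 2982630 reads and control libraries 1014812 to 1849351, so that group and read depth cannot be told apart. Of the brown adipocyte markers, Ucp1 had at least 4035 reads and Cidea at least 4693 in every library, while Dio2, Ppargc1a and Zic1 had 4, 10 and 2 reads in all. Of the 4 brown markers that could be tested, Elovl3, an elongase of fatty acids known to rise in cold brown fat, and Cpt1b, which carries fatty acids into mitochondria, rose (log2 3.69 ± 0.38 and 0.97 ± 0.24), while Ucp1 and Cidea were at -0.13 and 0.08 (adjusted p = 0.475 and 0.667). The extraction text of the labels names a white depot. Of the white adipocyte markers Wt1 and Tcf21 had no read and Lep had 1. Retn, which codes for resistin, had at least 114 reads in every library and rose (log2 1.07 ± 0.27). Nnat, the fifth white marker, had 8, 51 and 5 reads in cold mice 4, 11 and 15, against 1, 1 and 0 in control mice 2, 9 and 14, and was not tested.

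Skeletal muscle RNA stood out in particular libraries, which matters for genes that muscle also uses. The summed level of the 15 muscle markers was 185, 2849 and 13124 CPM (read counts scaled for library size by edgeR) in cold mice 4, 11 and 15, against 123, 545 and 962 CPM in control mice 2, 9 and 14. Cold mouse 15 lay above every other library and the 2 groups overlapped. Of these markers 7 could be tested and none was called, and Myh2 had no read. The counts of called genes are therefore also given without cold mice 11 and 15, a choice made after the data were seen. In whole tissue, fewer cells of a type and less RNA per cell cannot be told apart.

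In the cold, 4 structural subunits and the supercomplex factor Cox7a2l were lower, and the assembly factors Sco2 and Cmc2 were higher. Of the 37 genes, 26 passed the count filter and were tested, 5 of these fell and 2 rose, against 15.1% of all 2093 tested genes called lower and 18.1% called higher (edgeR quasi-likelihood test, adjusted p under 0.05). Together these 7 are to be read against 33.2% called in either direction over all tested genes. The genes that fell were Cox5b, Cox6a1, Cox7b, Cox8b and Cox7a2l, and those that rose were Sco2 and Cmc2. The number of genes called lower was 1 without cold mouse 4, 0 without cold mouse 11 and 2 without cold mouse 15, and 4 without each control mouse in turn. The changes themselves moved less: without cold mouse 11 they were -0.40 for Cox5b, -0.43 for Cox6a1, -0.38 for Cox7b, -0.84 for Cox8b and -1.04 for Cox7a2l, beside -0.43, -0.42, -0.39, -0.98 and -1.09 with all mice. The rises numbered 1 without cold mouse 4 or control mouse 9, 3 without cold mouse 15 and 4 without control mouse 2. Without cold mice 11 and 15 together 1 gene was called lower, Cox7a2l, and 1 higher, Sco2. That setting leaves 1 cold library, which is assumed to vary like the controls, so that its calls say little about the part of muscle RNA.

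**Figure D1:**
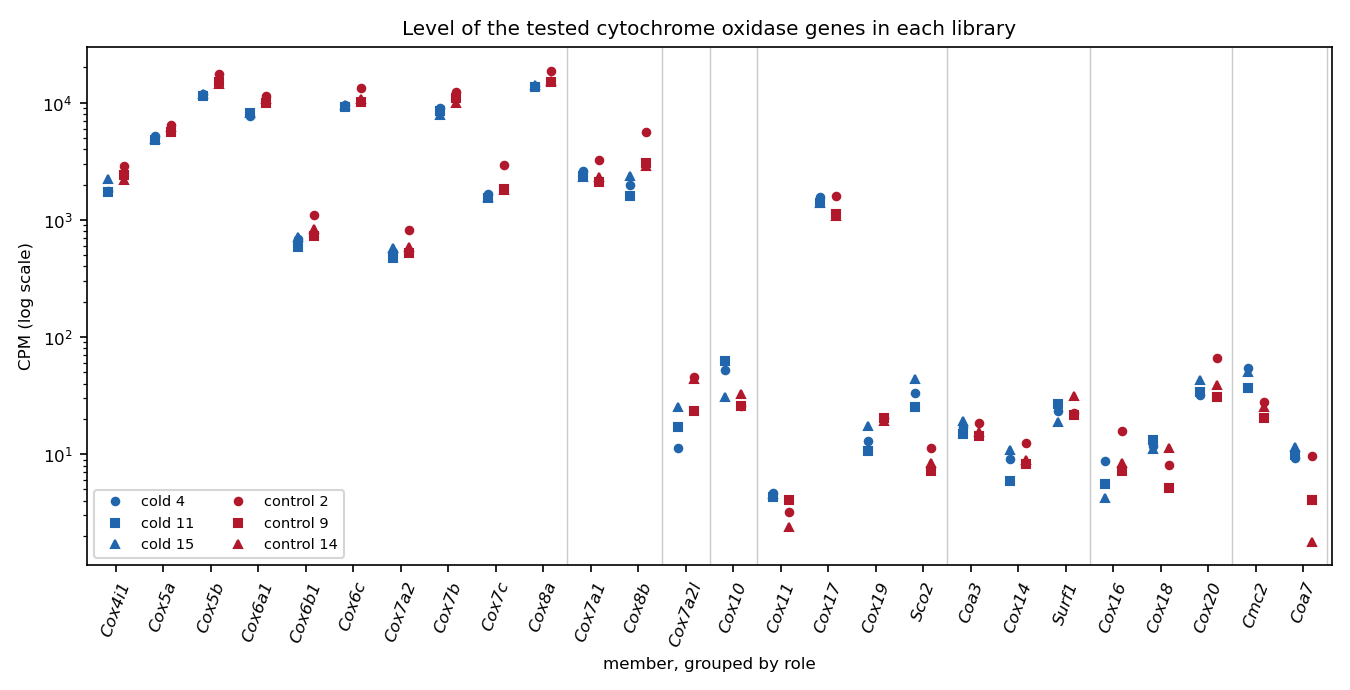
Level of each of the 26 tested genes (vertical axis, CPM on a log scale) in each cold and control library, with genes grouped by role along the horizontal axis. For Sco2 the cold libraries lie at 25.1 to 44.0 CPM and the controls at 7.17 to 11.3 CPM, while for most subunits the groups lie close together with the cold below.

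Among the structural subunits, 12 of 17 were tested, 4 fell and none rose. The 12 had a median log2 change of -0.38, cold minus control, beside 0.04 over all tested genes, and all 12 values were negative, as were 47.5% over all tested genes. In 9 of the 12 every cold library lay below every control library, which over all tested genes held for 21.8%. The 12 were read in the same libraries, so these are not counts of independent values. The count of negative values was also 12 with the size factors of DESeq2 and with library totals, and 11 with no count filter, at equal depth, without control mouse 2 and without cold mice 11 and 15. Cox7a1 was the subunit that turned in each of these 4 settings. The annotated length of the most-read transcript of these subunits ran from 360 to 1001 nucleotides. Over 423 other tested genes of 362 to 1000 nucleotides the median log2 change was -0.17, with 86 called lower and 54 higher, and over 1640 longer genes it was 0.11, with 222 lower and 322 higher. Negative values made up 58.9% of the former and 44.1% of the longer genes. The part of transcript length in the subunit values was not tested.

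The widely expressed subunits, 10 in number and all tested, had log2 changes between -0.45 and -0.25. Cox5b, a nuclear subunit of the enzyme's matrix side, stood at 11842, 11318 and 11902 CPM in cold mice 4, 11 and 15, against 17737, 15029.8 and 14427 CPM in control mice 2, 9 and 14. All cold values lay below all control values, and the level was 0.743-fold that of control (log2 -0.43 ± 0.13 SE, adjusted p = 0.0248). Cox6a1, the widely expressed form of subunit 6a, stood at 7669.8, 8103 and 8086 CPM in the cold libraries, against 11423, 9890.5 and 10690.0 CPM in the controls. Again the groups did not overlap (log2 -0.42 ± 0.12, adjusted p = 0.0229). Cox7b, a small membrane subunit encoded on the X chromosome, stood at 8976, 8473 and 7867 CPM in the cold libraries, against 12280.1, 10953 and 9901 CPM in the controls. Its highest cold value lay under its lowest control value (log2 -0.39 ± 0.13, adjusted p = 0.0440). Leaving out 1 mouse at a time gave log2 changes of -0.52 to -0.34 for Cox5b, -0.51 to -0.38 for Cox6a1 and -0.49 to -0.32 for Cox7b. The calls of Cox5b and Cox6a1 were lost without any of the cold mice, at adjusted p of 0.0672 to 0.0987, and that of Cox7b without any cold mouse or control mouse 9, at 0.0668 to 0.165. With library totals in place of TMM scaling the calls of Cox5b, Cox6a1 and Cox7b were lost too, at adjusted p of 0.0584, 0.0531 and 0.0967, as they were with no count filter, and that of Cox7b also with DESeq2 (0.0587) and at equal depth (0.0608).

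The other widely expressed subunits did not pass. Cox5a, Cox7c, Cox6b1 and Cox4i1 had log2 changes of -0.30 ± 0.13, -0.45 ± 0.20, -0.43 ± 0.19 and -0.38 ± 0.17, with adjusted p from 0.0947 to 0.110. Each of the 4 had an unadjusted p under 0.05 and a 95% interval that lay below 0. Cox6c (-0.27 ± 0.14), Cox8a (-0.25 ± 0.13) and Cox7a2 (-0.29 ± 0.20) had intervals that included 0. Cox8a, the subunit 8 form of most tissues, stood at 13761, 13559 and 14074 CPM in the cold libraries, against 18803, 14930.5 and 15375 CPM in the controls. Control mouse 2 was the highest library for all 12 tested subunits. Without it the median log2 change of the 12 was -0.26, and those of Cox7c, Cox6b1 and Cox4i1 were -0.18, -0.25 and -0.27, with unadjusted p of 0.172, 0.132 and 0.0902.

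**Figure D2:**
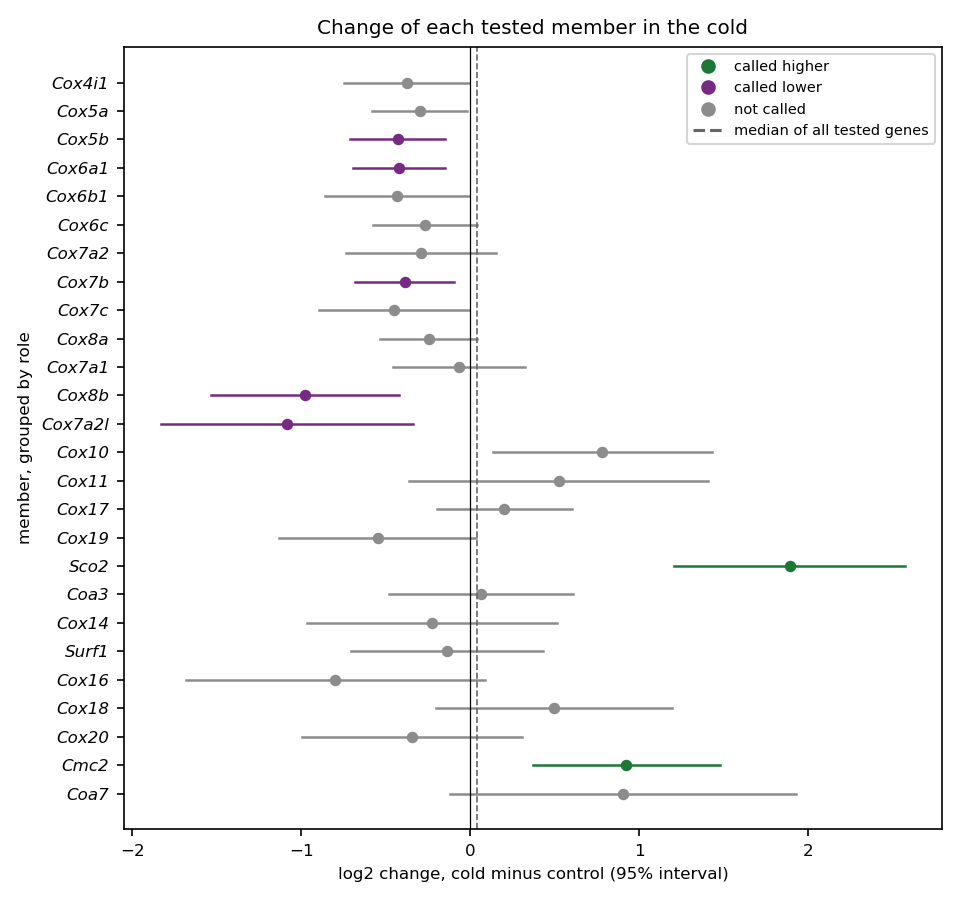
Log2 change of each tested gene, cold minus control (horizontal axis), with its 95% interval as a line, genes in rows by role, and the median of all tested genes as a dashed line. The structural subunits, from Cox4i1 to Cox8b in the upper rows, all lie left of 0, while Sco2 at 1.89 and Cmc2 at 0.92 lie right of it.

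Summed over the 12 tested subunits, the level was 66302, 63638 and 66197 CPM in cold mice 4, 11 and 15. In control mice 2, 9 and 14 it was 96639.5, 77257 and 77788 CPM. The sum made up 6.47 to 6.83% of the reads of a cold library, against 7.44 to 9.70% of a control library. The cold libraries lay close together and below the controls, while control mouse 2 stood above the other controls. Within the sum 10 of the 12 subunits held a share in the cold of 0.952 to 1.08 times that in control. Cox8a made up 21.1 ± 0.306% of subunit reads in the cold and 19.5 ± 0.225% in control (SD, n = 3 each), and Cox5b 17.9 ± 0.0979% and 18.8 ± 0.588%. The widest shifts were those of the heart-type forms, in opposite directions: Cox8b held 3.00 ± 0.520% in the cold and 4.52 ± 1.16% in control, and Cox7a1 held 3.72 ± 0.237% in the cold and 3.01 ± 0.301% in control. The groups did not overlap for either share. The shares of 1 library add to a whole, so they are not independent of each other.

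Of the tested heart-type forms, Cox8b was called lower and Cox7a1 was not called, and their changes were not tested against each other. The promoters of both heart-type forms, of Cox8a as the partner of Cox8b, of Cox6a1 as a subunit that fell and of Sco2 as the gene with the largest rise are shown to set their start regions side by side. Each runs from 250 bases before to 50 after the RefSeq start on GRCm38.p6, 5′ to 3′ on the gene's strand, and capitals mark matches to the motifs named after them. Cox8b lies at chr7:140900397-140900696 (minus strand), Cox8a at chr19:7217567-7217866 (minus), Cox7a1 at chr7:30183921-30184220 (plus), Cox6a1 at chr5:115348909-115349208 (minus) and Sco2 at chr15:89373842-89374141 (minus).
Cox8b: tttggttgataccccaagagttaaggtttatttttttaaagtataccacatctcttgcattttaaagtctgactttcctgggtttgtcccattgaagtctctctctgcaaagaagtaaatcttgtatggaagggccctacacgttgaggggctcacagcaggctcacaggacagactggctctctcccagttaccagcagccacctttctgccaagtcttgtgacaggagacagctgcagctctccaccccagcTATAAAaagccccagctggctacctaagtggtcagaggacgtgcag
Cox8a: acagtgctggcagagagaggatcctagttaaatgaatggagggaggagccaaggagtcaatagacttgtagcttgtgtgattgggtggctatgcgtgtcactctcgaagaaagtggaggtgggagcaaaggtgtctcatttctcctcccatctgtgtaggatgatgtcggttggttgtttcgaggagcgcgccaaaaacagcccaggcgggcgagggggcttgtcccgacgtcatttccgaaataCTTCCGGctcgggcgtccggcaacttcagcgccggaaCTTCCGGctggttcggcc
Cox7a1: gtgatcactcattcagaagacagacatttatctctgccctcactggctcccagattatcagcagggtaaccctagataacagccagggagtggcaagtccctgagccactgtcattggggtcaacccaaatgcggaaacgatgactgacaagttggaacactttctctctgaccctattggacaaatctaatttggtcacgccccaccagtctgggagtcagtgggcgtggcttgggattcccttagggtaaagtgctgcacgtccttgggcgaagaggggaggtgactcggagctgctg
Cox6a1: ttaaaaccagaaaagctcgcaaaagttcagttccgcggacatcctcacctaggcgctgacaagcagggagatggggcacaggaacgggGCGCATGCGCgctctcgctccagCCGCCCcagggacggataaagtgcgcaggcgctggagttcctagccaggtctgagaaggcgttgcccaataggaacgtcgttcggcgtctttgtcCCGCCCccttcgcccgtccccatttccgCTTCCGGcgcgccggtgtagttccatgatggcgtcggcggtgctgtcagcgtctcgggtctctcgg
Sco2: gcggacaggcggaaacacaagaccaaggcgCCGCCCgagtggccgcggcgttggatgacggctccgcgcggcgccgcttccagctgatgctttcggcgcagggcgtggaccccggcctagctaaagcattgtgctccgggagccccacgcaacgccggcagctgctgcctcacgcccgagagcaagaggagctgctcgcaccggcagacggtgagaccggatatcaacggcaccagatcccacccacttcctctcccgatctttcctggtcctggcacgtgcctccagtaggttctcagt

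The letters searched, on both strands, were GCGCA followed at once by TGCGC for NRF-1, CCGGAAG for GABP, AAGGTCA for ERR, AAGATGGCG for YY1, GGGCGG for Sp1, TGACGTCA for CREB and TATAAA for a TATA box, the last added after the sequences were seen. None of these motifs overlapped another in the windows shown. In RefSeq, 29 of the 37 genes had a window, 30 windows in all. CCGGAAG was in 13 of the 30 (43.3%), against 8.86% of all 32851 windows, and GGGCGG in 18 (60%), against 35.7%. Both windows of Cox16 are counted in each. Among the 10 windows of tested subunits, 3 held CCGGAAG and 3 held GGGCGG. The NRF-1 letters were in the window of Cox6a1 alone among the 30 (all windows 0.971%), AAGATGGCG in that of Cox10 (1.40%) and TGACGTCA in that of Coa7 (1.79%). AAGGTCA was in none of the 30 (all windows 4.72%), and TATAAA in 3, those of Cox10, Cox7b2 and Cox8b (13.6%). The window of Cox8a holds CCGGAAG in 2 places and that of Cox6a1 holds it beside those of NRF-1 and GGGCGG, while that of Cox8b holds TATAAA, 4 bases after the annotated start, and no other of these motifs. The window of Cox7a1 holds none of them. These are matches of letters and not shown to be sites.

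Cox8b, the heart-type form of subunit 8 (GRCm38 chromosome 7, 140898945 to 140900446), fell to about 0.508-fold. Its level was 1964, 1594 and 2345 CPM in cold mice 4, 11 and 15, against 5651, 3079 and 2895 CPM in control mice 2, 9 and 14. The groups did not overlap, and control mouse 2 was far above the rest (log2 -0.98 ± 0.25, 95% interval -1.54 to -0.42, adjusted p = 0.0128). The change was -0.61 without control mouse 2, where it was still called, and the call was lost without cold mouse 11 (-0.84, adjusted p = 0.0527) and without cold mice 11 and 15 together (-0.94, adjusted p = 0.0918). Cold mouse 15, with the most muscle RNA, had the highest Cox8b level of the cold libraries. Cold mouse 11, with more muscle RNA than cold mouse 4, had the lowest. Among the controls, mouse 2 had the least muscle RNA and the highest Cox8b level, and mouse 14 the most muscle RNA and the lowest level. The part of muscle RNA in these values was not tested. Cox7a1, the heart-type form of subunit 7a, stood at 2631, 2359 and 2314 CPM in the cold libraries, against 3220.1, 2115 and 2299.5 CPM in the controls. The groups overlapped (log2 -0.06 ± 0.18, 95% interval -0.45 to 0.33, adjusted p = 0.806), which leaves room for a change of up to 0.730-fold or 1.25-fold. Its value turned positive with no count filter, at equal depth, without control mouse 2 and without cold mice 11 and 15.

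Set against the widely expressed partner within each library, which removes the scaling between libraries, Cox8b made up less of the subunit 8 messages in the cold. Its share of Cox8b and Cox8a reads was 12.5, 10.5 and 14.3% in cold mice 4, 11 and 15, against 23.1, 17.1 and 15.8% in control mice 2, 9 and 14. The log2 ratio averaged -2.83 ± 0.252 in the cold and -2.14 ± 0.358 in control (SD, n = 3 each), a difference of -0.69 (exact two-sided permutation p = 0.1, the smallest that 3 against 3 allows, adjusted p = 0.1 over the 2 pairs tested). Without control mouse 2 the difference was -0.48. The share of Cox7a1 in Cox7a1 and Cox7a2 reads was 83.2, 83.4 and 80.1% in the cold libraries, against 79.9, 80.1 and 79.6% in the controls. Cold mouse 15 lay just above control mouse 9, and cold mice 4 and 11 lay well above all controls. The log2 ratio averaged 2.21 ± 0.180 in the cold and 1.99 ± 0.0198 in control, a difference of 0.23 (exact two-sided permutation p = 0.1, adjusted p = 0.1). Without cold mouse 15 the difference was 0.33, and on flow cell 2 alone it was 0.17 with overlapping groups (exact permutation p = 0.4). Neither pair can reach a p under 0.05 in this design.

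**Figure D3:**
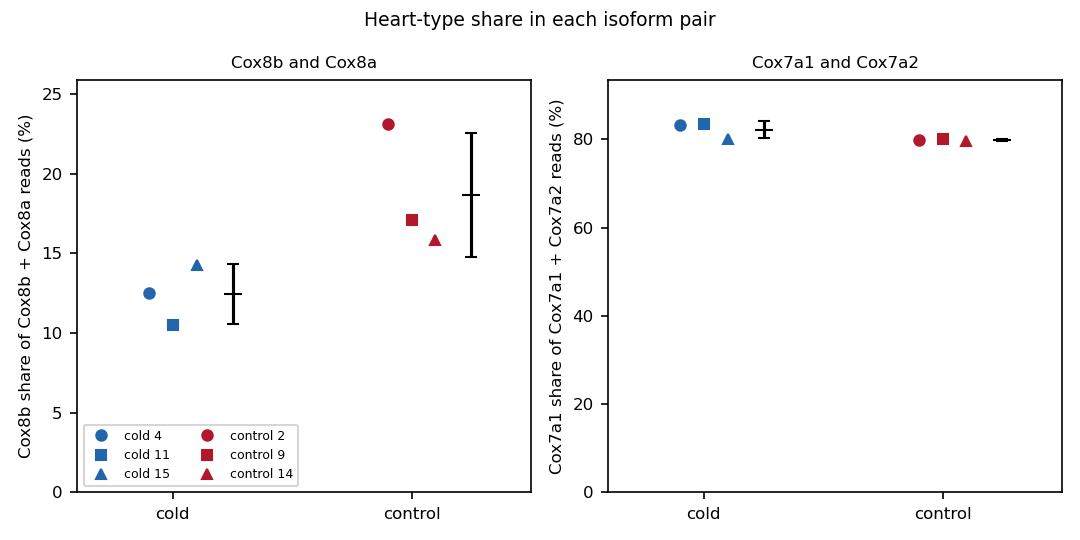
Share of the heart-type form in the reads of its isoform pair (vertical axis, percent) in each cold and control library, with the mean ± SD of 3 libraries at the right of each group. Cox8b takes 10.5 to 14.3% in the cold and 15.8 to 23.1% in control, and Cox7a1 takes 80.1 to 83.4% in the cold and 79.6 to 80.1% in control.

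The third heart-type form, Cox6a2, did not pass the count filter, so it was not tested, and was read mainly in the library richest in muscle RNA. It had 0, 6 and 100 reads in cold mice 4, 11 and 15, against 0, 1 and 1 in control mice 2, 9 and 14. Cold mouse 15 held 100 of its 108 reads and was also the library with the highest muscle sum. The defining muscle gene Ckm, the muscle creatine kinase, stood at 8.03, 91.0 and 665 CPM in the cold libraries and at 8.62, 19.5 and 40.6 CPM in the controls. Among the other tissue-restricted forms, Cox4i2, known from lung, had 41 reads and Cox6b2, known from testis, had 2. Cox7b2 and Cox8c, also known from testis, had none, which allows at most 1.01 to 2.96 CPM, depending on the library. Such limits take in counting error alone, because reads copied by PCR are no separate molecules.

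**Figure D4:**
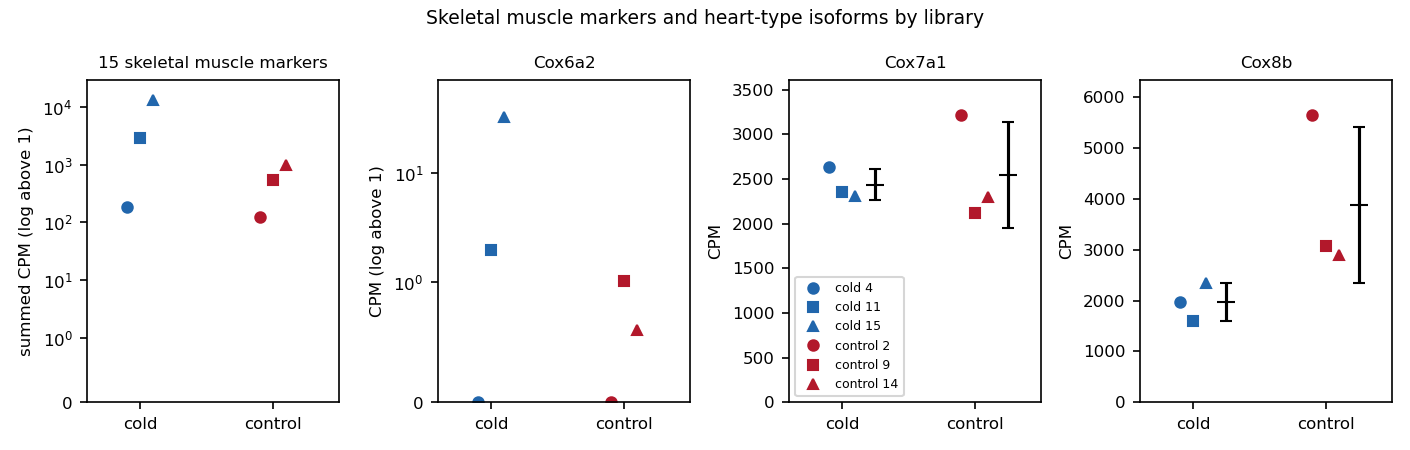
Summed CPM of the 15 skeletal muscle markers and CPM of the heart-type forms Cox6a2, Cox7a1 and Cox8b (vertical axes, the first 2 panels on a log scale above 1) in each cold and control library, with mean ± SD in the last 2 panels. Cold mouse 15 is highest for the markers and for Cox6a2 (32.8 CPM), but not for Cox7a1 or among all libraries for Cox8b.

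Cox7a2l, a relative of subunit 7a that links complex III to complex IV in supercomplexes and is known to exist as a shortened allele in C57BL/6 mice, fell. It stood at 11.4, 17.1 and 25.3 CPM in the cold libraries, against 45.3, 23.5 and 43.6 CPM in the controls. Cold mouse 15 lay just above control mouse 9, so the groups overlapped (log2 -1.09 ± 0.34, 0.471-fold, adjusted p = 0.0300). The call was lost without cold mouse 4 or 11 or control mouse 2 or 14, at log2 changes between -1.04 and -0.86, and at equal depth (-1.21, adjusted p = 0.144) and on flow cell 1 alone (-1.02, adjusted p = 0.0956). Its 343 reads make it a far less precise value than those of the subunits.

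Copper delivery held the largest rise. Sco2, a copper chaperone for the enzyme's second core subunit (chromosome 15, 89371637 to 89373846), stood at 33.4, 25.1 and 44.0 CPM in cold mice 4, 11 and 15, against 11.3, 7.17 and 8.37 CPM in control mice 2, 9 and 14. The lowest cold value stood well above the highest control value, and the level was 3.71-fold that of control (log2 1.89 ± 0.31, 95% interval 1.21 to 2.57, adjusted p = 0.00100). Sco2 was called higher in all 16 alternatives run, at log2 changes of 1.60 to 2.15. Exons of Sco2 overlap those of Tymp on the same strand, which had 2 reads, and those of Ncaph2 on the opposite strand, which had 561. Ncaph2 itself rose by 0.92 ± 0.29 (adjusted p = 0.0292), and no source used here says whether counting used strand, so that reads of Sco2 and Ncaph2 cannot be told apart with certainty. The related chaperone Sco1 had 1 read in all.

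The other copper factors did not pass. Cox17, which hands copper to the chaperones, stood at 1552, 1404 and 1401 CPM in the cold libraries, against 1592, 1111 and 1083 CPM in the controls. Its groups overlapped through control mouse 2 (log2 0.20 ± 0.18, adjusted p = 0.420), without which it was called higher (0.39, adjusted p = 0.0463). Without control mouse 9 or 14 the change was 0.083 and 0.074 (adjusted p = 0.801 and 0.824). Cox11, needed for the copper site of the first core subunit, had a log2 change of 0.52 ± 0.40. Cox19, a partner of Cox11, stood lower in every cold library, at 13.0, 10.6 and 17.4 CPM, against 20.5, 20.5 and 19.1 CPM in the controls, without passing (-0.55 ± 0.26, adjusted p = 0.134). Coa6, another copper factor, had 25 reads and was not tested.

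Heme A synthesis, the making of the enzyme's own heme, was represented by Cox10 alone, since Cox15 had no read. Cox10 stood at 52.5, 62.7 and 30.5 CPM in the cold libraries, against 25.9, 25.6 and 32.9 CPM in the controls. Cold mouse 15 lay among the controls and the others above them (log2 0.78 ± 0.29, adjusted p = 0.0619). Without cold mouse 15 it was called higher (1.03, adjusted p = 0.0143), and with library totals or no count filter as well (adjusted p = 0.0441 and 0.0247). Without cold mouse 11 the change was 0.57 (adjusted p = 0.222), and without cold mouse 4 or control mouse 9 it was 0.70 and 0.69 (adjusted p = 0.166 and 0.164).

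Of the factors that assemble the core subunits, none was called. For the first core subunit, Coa3, Cox14 and Surf1 had log2 changes of 0.06 ± 0.25, -0.23 ± 0.34 and -0.14 ± 0.26, and Cmc1 had 43 reads and was not tested. For the second, the membrane insertase Cox18 and its partners Cox20 and Cox16 had log2 changes of 0.50 ± 0.32, -0.35 ± 0.30 and -0.80 ± 0.40. The signs of Coa3, Surf1 and Cox20 turned in some alternatives. Cox16 shares exon sequence with the read-through gene Gm20498, which had 9 reads against its 106, so that its value is uncertain. Exons of Cox20 overlap those of Hnrnpu on the opposite strand, which had 59 reads against 548 of Cox20. Exons of Surf1 likewise overlap those of Surf2, which had 28 reads against 323 of Surf1. Whether counting used strand is not known, so the values of Cox20 and Surf1 are uncertain too. Among the remaining factors Cmc2 rose, a small twin-cysteine protein needed for the enzyme's assembly. It stood at 54.2, 36.6 and 50.5 CPM in the cold libraries, against 28.0, 20.5 and 25.1 CPM in the controls, without overlap (log2 0.92 ± 0.25, 1.90-fold, adjusted p = 0.0160). Its call was lost without cold mouse 4 (0.79, adjusted p = 0.0812), control mouse 9 (0.79, adjusted p = 0.0648) or cold mice 11 and 15 together (1.17, adjusted p = 0.0571). Coa7, a protein of the intermembrane space, had a log2 change of 0.91 ± 0.46 (adjusted p = 0.156) and was called without control mouse 2 (1.90, adjusted p = 0.0138), while without control mouse 14 it was at 0.43 (adjusted p = 0.462). Coa5 had 43 reads and was not tested, and Coa4 had none.

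Transcript by transcript, the calls fell on the genes called above, and no change in the makeup of a gene was called. Of 47 tested transcripts of these genes 7 fell and 4 rose, against 32.7% of all 2787 tested transcripts called. Shares of transcripts within a gene could be tested for 16 of the genes and were called in 0, against 1.67% of all 539 genes, and 0 had an unadjusted p under 0.05 (diffSpliceDGE of edgeR, smallest p 0.321). The sources used here do not give how reads that fit several transcripts were assigned, which bears on transcripts as alike as those of Cox4i1 and Cox5b. Cox4i1 was split into 41.6 ± 0.434% Cox4i1-201 and 58.2 ± 0.429% Cox4i1-205 in the cold, and into 41.7 ± 0.527% and 57.9 ± 0.541% in control. Cox5b was split into 53.1 ± 0.0975% Cox5b-201 and 46.7 ± 0.128% Cox5b-204 in the cold, and into 53.1 ± 1.03% and 46.6 ± 1.08% in control. In Sco2 both transcripts rose, Sco2-201 by 1.93 and Sco2-202 by 1.85 on the log2 scale (adjusted p = 0.00983 and 0.00108).

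Some of these genes were read largely from transcripts annotated as targets of nonsense-mediated decay, which removes messages with an early stop. In Cmc2 the decay transcripts Cmc2-203 and Cmc2-206 held 30.6 ± 3.41% and 35.5 ± 3.65% of reads in the cold, and 34.8 ± 3.76% and 32.6 ± 6.78% in control. Of the 2, Cmc2-206 rose (log2 0.99, adjusted p = 0.0413), as did the coding transcript Cmc2-205 (0.99, adjusted p = 0.0210). In Surf1, an assembly factor mutated in human Leigh syndrome, the decay transcript Surf1-209 held 67.6 ± 2.56% in the cold and 58.9 ± 10.2% in control. The retained-intron transcript Cox6a1-202 held 1.24 ± 0.0822% of Cox6a1 reads in the cold and 0.875 ± 0.105% in control, without overlap, while the usage test of Cox6a1 did not pass.

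Of the mitochondrially encoded core subunits, mt-Co2 and mt-Co3 fell and mt-Co1 did not pass. Mt-Co2 stood at 734, 642 and 454 CPM in cold mice 4, 11 and 15, against 1807, 1940.0 and 1568 CPM in control mice 2, 9 and 14, and fell (log2 -1.54 ± 0.20, adjusted p = 0.000279). Mt-Co3 stood at 692, 528 and 614 CPM in the cold libraries, against 2158, 4036 and 1609 CPM in the controls, and fell as well (-2.09 ± 0.30, adjusted p = 0.000453). Mt-Co1 stood at 393, 154 and 162 CPM in the cold libraries, against 207, 183 and 80.7 CPM in the controls, with overlap (0.59 ± 0.44, adjusted p = 0.329). Mitochondrial messages carry no cap, for which the cDNA kit selects, so these levels are not to be set against nuclear ones. How much uncapped RNA came through in each library was not tested, which limits the comparison of cold with control for these genes too.

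**Figure D5:**
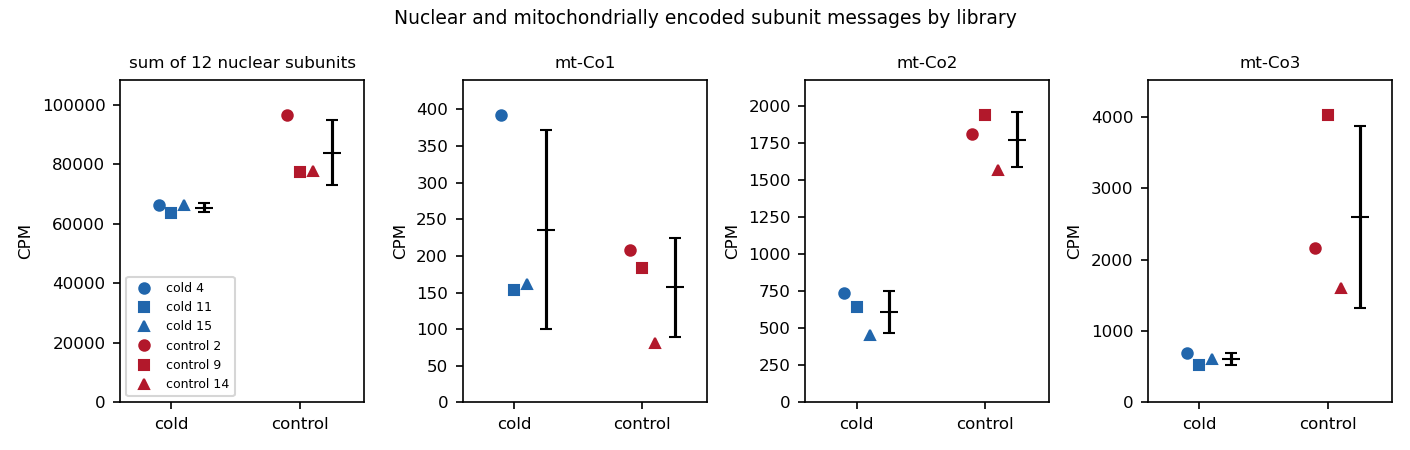
Summed CPM of the 12 tested nuclear subunits and CPM of mt-Co1, mt-Co2 and mt-Co3 (vertical axes) in each cold and control library, with the mean ± SD of 3 libraries beside each group. The nuclear sum, mt-Co2 and mt-Co3 are lower in every cold library than in every control library, and mt-Co1 overlaps.

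Of the other genes tied to the enzyme, Ndufa4, a subunit once counted to complex I, had a log2 change of -0.37 ± 0.14 with every cold library below every control library (adjusted p = 0.0597). Cycs, the cytochrome c that feeds the enzyme, stood at 1307 ± 292 CPM in the cold and 1352 ± 377 CPM in control (-0.05 ± 0.23, adjusted p = 0.883). Hccs, which attaches heme to cytochrome c, had 13, 11 and 10 reads in the cold libraries, against 0, 0 and 1 in the shallower controls, and was not tested. In the list of 17 further assembly or expression factors 12 were tested, 1 rose and 1 fell, against 18.1% called higher and 15.1% called lower over all tested genes. Slirp, which steadies mitochondrial messages together with Lrpprc, rose (154 ± 22.3 CPM in the cold, 74.0 ± 26.9 CPM in control, log2 1.05 ± 0.27, adjusted p = 0.0123), and Lrpprc itself had 4 reads. Apopt1, also called Coa8 and known to protect assembly under oxidative stress, fell (2.43 ± 1.69 CPM in the cold, 10.3 ± 2.24 CPM in control, -2.05 ± 0.47, adjusted p = 0.00714). It had only 6, 13 and 3 reads in cold mice 4, 11 and 15, against 15, 10 and 21 in control mice 2, 9 and 14. Cold mouse 15 thus lay at the floor of 3 reads. Taco1, Tmem223 and Higd2a had log2 changes of 0.97 ± 0.35, -0.99 ± 0.35 and -0.60 ± 0.23, with adjusted p of 0.0546, 0.0518 and 0.0639.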

How the data were processed

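Per the submitters' processing notes, reads were handled with minimap2 and the build GRCm38. The counter and the minimap2 version are not given in the sources used here. The deposited files hold raw counts of reads per Ensembl transcript and flow cell, listing only transcripts with a read. Per the labels, cDNA went through 27 PCR cycles, with no molecular identifiers named. Of 14693 identifiers 14671 matched GENCODE M21 without version, and unmatched ones held at most 0.00433% of a library. Counts were summed over both flow cells and over transcripts. In edgeR 4.0.16 (R 4.3.3), genes passed filterByExpr at a minimum count of 10, libraries were scaled by TMM, and a robust quasi-likelihood F test set cold against control, with Benjamini-Hochberg adjustment over all tested genes, called under 0.05. The SE is the log2 change over the square root of F. Floors are 3 reads. Flow cells of a library differed in 1 or 2 genes, libraries of a group in 20.1 to 38.6% (exact binomial tests, 20 or more reads). Near-identical copies were sought with blastn 2.17.0 at 95% identity, and 5 of the genes had one with reads. The largest by share was Gm20498, with 8.49% of the reads of Cox16, followed by Gm10012, with 0.644% of those of Cox7c. Exons of 14 of the genes overlap another gene. Genes, lists and alternatives were chosen with earlier results of these data known. Every gene found was accounted for, with full values for called genes, tested isoform pairs and the most-read genes. Mouse numbers are not shared between groups, so nothing was paired. Markers of endothelial cells and macrophages were counted as well. The endothelial sum was 4.27 to 7.58 CPM in the cold and 4.85 to 10.2 CPM in control. That of macrophages was 52.8 to 120.1 CPM and 52.6 to 85.0 CPM. C1qa held most reads of the macrophage sum in every library, such as 348 of 366 in cold mouse 15. The macrophage markers Adgre1, Cd68 and Csf1r had no read.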

Additional observations from a re-analysis of the deposited data

How the results depend on the processing

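Of 401 values of single tested genes under 16 alternatives, 355 kept their direction and their side of the threshold, 32 lost a call, 5 gained one and 9 turned sign, none of them in a called gene. Leaving out cold mice 11 and 15 together, chosen after seeing the data, left 321 of 695 called genes in number, 411 of 912 transcripts and 2 of 9 genes in the usage test, with 1 of these genes higher and 1 lower. This setting keeps 1 cold library, assumed to vary like the controls, so fewer calls follow in part from its construction. Genes lower in the cold numbered 2 with library totals, 2 with no count filter and 3 at equal depth, in place of 5. Usage calls numbered 3 with no count filter. Leaving out 1 mouse at a time gave 1 to 4 genes higher, 0 to 4 lower, 498 to 687 called genes over all, 610 to 862 transcripts and 2 to 6 usage calls. It gave log2 ratios of -0.82 to -0.48 for Cox8b to Cox8a and of 0.17 to 0.33 for Cox7a1 to Cox7a2. It gave log2 changes of -0.26 to 0.024 for Surf1, -0.033 to 0.17 for Coa3, -0.58 to 0.039 for Cox20 and -0.22 to 0.13 for Cox7a1. Coa3 was at -0.16 on flow cell 2 alone, and Cox7a1 at 0.053 with no count filter, 0.014 at equal depth and 0.091 without cold mice 11 and 15. With no count filter 8129 genes entered, and the median log2 change of all genes was 0.30, beside 0.04 with the filter. The median of the 12 tested subunits moved as well, from -0.38 to -0.26. The cause of these and of the other shifts was not tested. No paired analysis was possible because the groups share no mouse number. Of the 37 genes, 11 did not pass the count filter, and control mouse 9, with the fewest reads, sets the highest detection floor.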
